A study of Labrus bergylta with 24 samples.

Results

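Ballan wrasse (*Labrus bergylta*) is a stomachless marine fish, stocked in salmon cages as a cleaner fish. The comparison here is between wrasse fed soyasaponin and prebiotic together (the combined diet) and wrasse fed the reference diet (control). It rests on 12 of the 24 hindgut libraries of the series, 6 fish on each diet, chosen by the treatment named in the labels. Combined fish received the reference diet with 0.7% soyasaponin and 0.4% of a commercial prebiotic (Aquate SG), and control fish received the reference diet with neither. The other 12 fish received soyasaponin alone (6 fish) or prebiotic alone (6 fish) at the same inclusion, and they entered the fits to estimate the spread between fish. Before the 5 weeks of feeding, all 24 fish had spent 4 weeks of acclimatization on the reference diet. Every diet was fed in 2 tanks, and no label ties a fish to a tank, so diet and tank cannot be told apart and each p-value treats fish as independent.

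Soyasaponins are triterpenoid glycosides of soybean that bind membrane sterols, and in Atlantic salmon they are known for their part in the inflammation of the distal intestine that soybean meal causes. Prebiotics are feed ingredients that the fish does not digest itself and that are meant to act through gut microbes. The hindgut is the segment where fish take up intact proteins and where mucosal immune cells are abundant.

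Messenger RNA was sequenced, and each value is a normalized count: the reads of a transcript divided by a size factor of its library. It is not scaled to transcript length, so values are compared between fish and not between transcripts. Libraries held 8.55 to 9.50 M (mega) reads in combined fish and 8.42 to 12.5 M in control fish. Means were 9.0 ± 0.36 M in combined and 9.86 ± 1.48 M in control fish (6 fish each, ± SD; exact two-sided permutation p = 0.193, adjusted p = 0.321 over 5 library measures). Transcripts carry identifiers only, and 0 of 20751 matched the gene table used here. The tissue could therefore not be checked against marker genes, no functional group can be named, and in bulk tissue fewer cells of a type and less RNA per cell cannot be told apart.

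Between combined and control fish, 553 of 17056 transcripts tested (3.24%) were changed, 319 raised (1.87%) and 234 lowered (1.37%) in combined fish. A transcript was counted as changed at an adjusted p under 0.05 (limma on log2(normalized count + 1), Benjamini-Hochberg over all transcripts tested). The raised transcripts had a median log2 fold change of 0.66, with the middle 50% between 0.49 and 1.01. For the lowered transcripts the median was -0.78, with the middle 50% between -1.02 and -0.63. The median over all transcripts tested was 0.01.

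Most changes were small. Of the 319 raised transcripts, 124 differed by less than 1.5-fold, 114 by 1.5-fold to 2-fold, 70 by 2-fold to 4-fold and 11 by 4-fold or more. Of the 234 lowered ones, 43 differed by less than 1.5-fold, 127 by 1.5-fold to 2-fold, 59 by 2-fold to 4-fold and 5 by 4-fold or more. Small rises thus made up a larger share of the raised than of the lowered transcripts, and changes of at least 2-fold came to 0.85% of all transcripts tested. When the test asked for a change beyond 1.2-fold in place of any change, limma called 0 transcripts, with a smallest adjusted p of 0.0962 and 1191 transcripts under 0.05 before adjustment (this minimum was not used with edgeR or DESeq2). The direction of many transcripts was thereby called, but no single change was shown to exceed 1.2-fold.

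**Figure D1:**
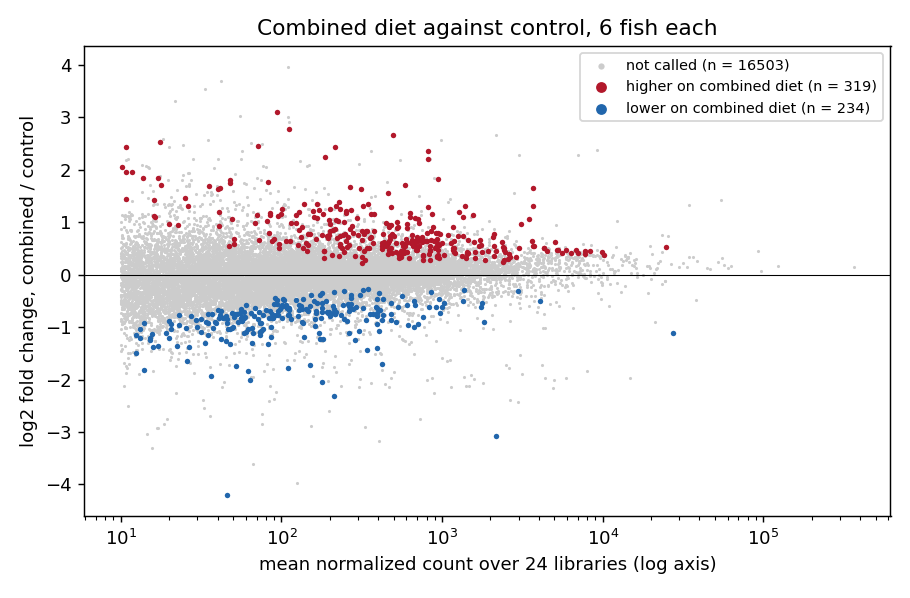
Each point is 1 of the 17056 transcripts, with its mean normalized count over all 24 libraries on the x axis (log scale) and its log2 fold change, combined over control, on the y axis. Red points were raised (319), blue points lowered (234) and grey points not called. The red points lie further to the right, at higher mean counts.

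Raised and lowered transcripts differed in how many reads they drew. In the top tercile of mean normalized counts (272 and above), 210 transcripts were raised and 57 lowered. In the middle tercile 82 were raised and 98 lowered, and in the bottom tercile (10.0 to 67.6) 27 were raised and 79 lowered. Shares called in this main limma fit were 4.70% in the top, 3.17% in the middle and 1.86% in the bottom tercile. The median log2 fold change over all transcripts, called or not, was 0.037 at a mean of at least 50, against 0.014 over all tested. The precision differed too, since the median half-width of the 95% interval of a log2 fold change was 0.28 in the top, 0.39 in the middle and 0.66 in the bottom tercile. At 2-fold or more, 26 were raised and 9 lowered in the top tercile, and 21 were raised and 39 lowered in the bottom one. These terciles order transcripts by read support, which includes transcript length. Only 2 of the 553 passed the filter on a mean of at least 10 through a single diet.

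The raised transcripts took 4.35 ± 0.48% of all normalized counts in combined fish, against 3.07 ± 0.42% in control fish (± SD, 6 fish each). The lowered ones took 0.657 ± 0.070% in combined fish, against 1.27 ± 0.15% in control fish (± SD, 6 fish each). These shares describe the sets and are not tested, since the same fish chose the transcripts.

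No transcript was read in every fish of one diet and in no fish of the other. Of the 20751 deposited transcripts, 6 had 0 reads in all 6 combined fish, and 8 had 0 reads in all 6 control fish. Every fish of the other diet held a read in 0 of either set, and 0 of either set reached the mean of 10 needed for the test. With 0 reads in a library, up to 3 expected reads are still possible at this depth, which covers counting error only. Each deposited transcript held at least 51 reads in total, so any with fewer could not appear in these counts.

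In 538 of the 17056 transcripts (3.15%) the fish of the diets did not overlap: all 6 combined fish lay above all 6 control fish in 251 (1.47%) and below them in 287 (1.68%). Among the changed transcripts this held for 114 of the 319 raised and 130 of the 234 lowered. A further 93 raised and 83 lowered transcripts had 5 combined fish beyond the control range, against 1035 of all transcripts tested (6.07%). In all, 213 of 234 lowered and 207 of 319 raised transcripts had at least 5 combined fish beyond the control range. These counts describe fish that also chose the transcripts, and control replicate 5 stood highest of the controls over the raised set, at a median of 0.25 above the control mean against at most 0.01 in the others. Median standard deviations between fish, in log2 units, were 0.23 in combined and 0.28 in control fish for the raised set. They were 0.31 in combined and 0.27 in control fish for the lowered set, and 0.29 in combined and 0.31 in control fish over all transcripts tested.

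The transcripts given by identifier are the largest rises and falls among the 201 changed transcripts that had a mean of at least 50 and no overlap between combined and control fish.

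LABE_00064073-RA had a lowest, median and highest normalized count of 78.1, 169 and 572 in combined fish. The same values were 18.0, 58.1 and 203 in soyasaponin, 11.3, 27.7 and 61.7 in prebiotic, and 4.13, 30.6 and 37.4 in control fish. Every combined fish lay above every prebiotic and control fish, while the soyasaponin fish spread over both ranges. It rose by 3.11 on the log2 scale against control (SE 0.59, 95% interval 1.88 to 4.33, limma adjusted p = 0.0159). Against soyasaponin alone the estimate was 1.35 (95% interval 0.13 to 2.58, limma adjusted p = 0.859), which missed the threshold and does not show equal levels.

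LABE_00058622-RA had a lowest, median and highest normalized count of 45.5, 137 and 342 in combined fish. Soyasaponin fish had 91.3, 177 and 614, prebiotic fish 2.35, 14.3 and 43.6, and control fish 8.09, 20.3 and 40.1. Both diets with soyasaponin lay wholly above both diets without it, the closest fish being a combined one at 45.5 and a prebiotic one at 43.6. The rise against control was 2.77 (SE 0.63, 95% interval 1.46 to 4.08, limma adjusted p = 0.0232). The difference from soyasaponin alone was -0.48 (95% interval -1.78 to 0.83, limma adjusted p = 0.998), an interval that includes a fall of more than 2-fold but no rise of that size.

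LABE_00035077-RA had a lowest, median and highest normalized count of 250.3, 375 and 1303 in combined fish. Values were 153, 677 and 5797 in soyasaponin, 1129, 2063 and 3144 in prebiotic, and 2496, 3884 and 7142 in control fish. Combined fish were all below the controls and mostly below the prebiotic fish, with the highest combined fish above the lowest prebiotic fish. Soyasaponin replicate 1 stood at 5797, inside the control range, while the other 5 soyasaponin fish reached at most 1038. It fell by 3.08 on the log2 scale in combined against control fish (SE 0.59, 95% interval -4.30 to -1.86, limma adjusted p = 0.0159).

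LABE_00029363-RA had a lowest, median and highest normalized count of 16.5, 32.3 and 47.5 in combined fish. Soyasaponin fish had 16.6, 39.6 and 87.0, prebiotic fish 19.9, 45.9 and 59.1, and control fish 49.96, 119 and 253. The control fish stood apart from combined fish by a narrow margin, 47.5 against 49.96, and all 3 supplemented diets had similar medians. The log2 fold change against control was -2.004 (SE 0.40, 95% interval -2.84 to -1.17, limma adjusted p = 0.0178). The single additions gave -1.66 for soyasaponin (limma adjusted p = 0.0475) and -1.56 for prebiotic (limma adjusted p = 0.0470) against the same 6 control fish.

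Without combined replicate 2, all 4 of these transcripts missed the threshold, with adjusted p of 0.0516 to 0.0714 (limma) and log2 fold changes of 2.77, 2.50, -2.89 and -1.92 in the order given. LABE_00058622-RA also missed it without combined replicate 4 (adjusted p = 0.0534), without control replicate 3 (adjusted p = 0.0546) and with the log2 size factor as a covariate (adjusted p = 0.0568). Against a 1.2-fold minimum their adjusted p were 0.0962 to 0.184.

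**Figure D2:**
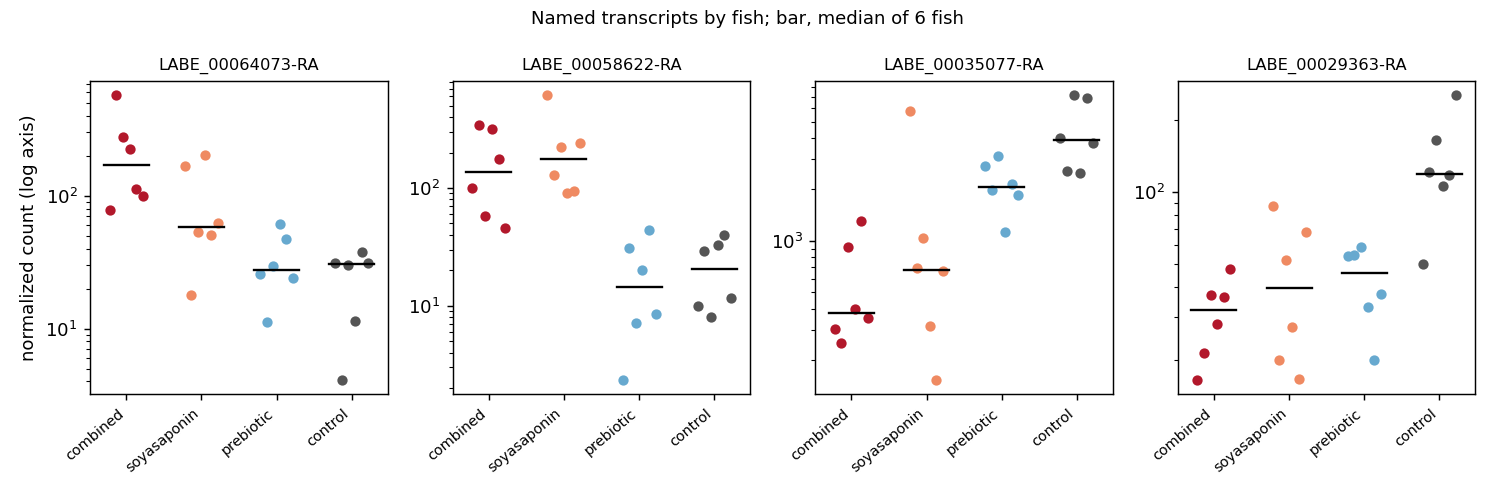
Normalized counts (log axis, a separate scale per panel) of the 4 transcripts, 1 point per fish and a bar at the median of 6 fish, for combined, soyasaponin, prebiotic and control fish. Combined and control fish do not overlap in any panel, as the choice of these transcripts required. Soyasaponin replicate 1 at 5797 is the soyasaponin fish inside the control range of LABE_00035077-RA.

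The number of changed transcripts depended on single fish, above all on combined replicate 2. Left out of the fit, that fish took the count to 19 (15 raised, 4 lowered), all 19 of them among the 553. Before adjustment, 2836 transcripts were under 0.05 in limma without it, against 3514 with all 24 fish. The count also moved steeply with the threshold: with all 24 fish, limma called 106 at an adjusted p under 0.02 and 1470 under 0.1. Omitting combined replicate 4 gave 247, and omitting combined replicate 3 gave 253. Omitting control replicates 1, 2, 3, 4 and 6 in turn gave 264, 199, 207, 322 and 361. With control replicate 5 omitted it was 820, and over all 24 omissions it ran from 19 to 820. Omitting any one soyasaponin or prebiotic fish, which alters only the estimate of the spread, gave 445 to 738.

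**Figure D3:**
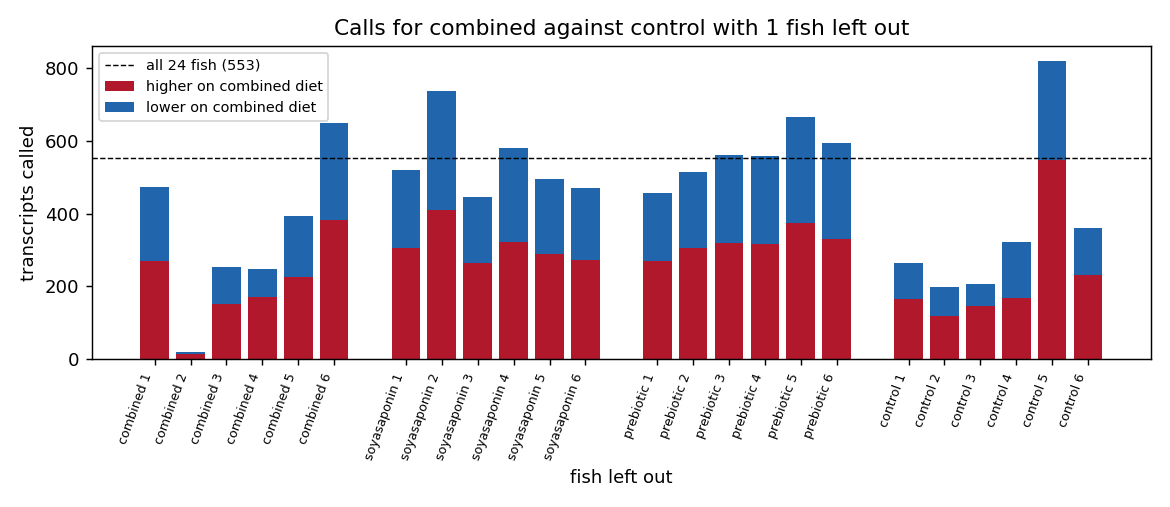
Transcripts called for combined against control (y axis) when the fish named on the x axis is left out, raised in red and lowered in blue, with the count from all 24 fish (553) as a dashed line. The bar without combined replicate 2 is the shortest, at 19, and that without control replicate 5 the tallest, at 820.

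Combined replicate 2 was the most displaced fish in both sets, and the other combined fish lay on the same side. That side is favoured in advance, since all of these fish helped to choose the transcripts. Relative to the control mean, the raised transcripts had a median difference of 0.93 on the log2 scale in replicate 2 and of 0.54 to 0.69 in the other 5 combined fish. For the lowered transcripts it was -0.997 in replicate 2 and -0.84 to -0.61 in the other 5. Replicate 2 lay above the whole control range in 309 of the 319 raised transcripts, and the other combined fish in 205 to 281. Over all transcripts tested, replicate 2 was above the control range in 24.4% and below it in 21.4%, the highest shares among combined fish (15.2 to 18.8% above and 15.5 to 20.2% below in the others). Its median correlation with the other libraries was 0.901, the lowest among combined and control libraries (0.906 to 0.927 in the others). Soyasaponin replicate 4 (0.895) and prebiotic replicates 2, 4 and 5 (0.880, 0.853 and 0.839) had lower ones.

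Because each of these fish had helped to choose the transcripts, every combined fish was also set against calls made without it. The fish left out lay on the called side of the control median in 443 of 473 transcripts for replicate 1, 19 of 19 for replicate 2 and 252 of 253 for replicate 3. It did so in 243 of 247 for replicate 4, 386 of 393 for replicate 5 and 601 of 648 for replicate 6. These are 92.7 to 100% of the calls. Over all transcripts tested, the fish left out lay above the control median in 48.9 to 51.2%. The control fish were the same throughout, and choosing transcripts on them favours the called side by itself. The share over all transcripts does not allow for that choice, so the shares of the calls are a description without a matched reference. The fish left out also shared the tanks of its diet with fish that were used.

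As whole libraries, combined and control fish were not shown to differ. Of the squared distances between these 12 libraries, 12.8% lay between the diets (exact permutation p = 0.104 over all arrangements). With a pseudocount of 5 it was 14.4% (exact permutation p = 0.0390). A split of the libraries regardless of diet also gives a share above 0, which the permutation test takes into account. The median distance between a combined and a control library was 126.0, against 119 between combined libraries and 125 between control libraries. These are Euclidean distances, the square root of the squared log2 differences summed over 17056 transcripts. On the first principal component, with 31.5% of the variance of all 24 libraries, scores were -5.08 ± 49.4 in combined and -17.8 ± 34.5 in control fish (SD, n = 6 each; exact permutation p = 0.604). On the second, with 9.76%, they were -20.0 ± 19.8 in combined and 12.4 ± 28.5 in control fish (SD, n = 6 each; exact permutation p = 0.0519, adjusted p = 0.260). The unadjusted exact permutation p of the second was 0.0281 to 0.0455 when control replicate 1, control replicate 3, combined replicate 1 or combined replicate 5 was left out. The 100 transcripts with the highest counts took 27.0 ± 0.9% of normalized counts in combined and 26.0 ± 2.2% in control fish (SD, n = 6 each; exact permutation p = 0.333, adjusted p = 0.417). That difference of 1.004 percentage points was 1.69 without control replicate 4 (exact permutation p = 0.0238) and 0.35 without control replicate 5 (exact permutation p = 0.671). The lowest p this design allows is 0.00216.

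Sequencing depth was not shown to differ between combined and control fish. The difference of -0.87 M reads (exact permutation p = 0.193) was -0.34 M without control replicate 1, the deepest library at 12.5 M (exact permutation p = 0.405), and -1.15 M without control replicate 4 (exact permutation p = 0.0390). Soyasaponin libraries held 9.38 to 11.2 M reads and prebiotic libraries 8.63 to 10.6 M, and depth was not tested for these diets. With the log2 size factor as a covariate, 218 transcripts were called for combined against control, 155 raised and 63 lowered, and 200 of them were among the 553. Quantile normalization gave 332, 207 raised and 125 lowered. On whole reads recovered from the deposited values, edgeR called 489 (279 raised, 210 lowered) and DESeq2 called 1247, of which 618 were raised and 629 lowered. The excess of raised transcripts was thus absent in DESeq2, whose calls held all of the 553. It was also absent in a limma fit of only the combined and control fish (327 raised, 344 lowered). In the main limma fit it was absent at an adjusted p under 0.2 (1454 raised, 1499 lowered).

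Set beside the single additions, the raised transcripts had a median log2 difference from control of 0.66 on the combined diet, 0.44 on soyasaponin and 0.16 on prebiotic. For the lowered transcripts it was -0.78 on the combined diet, -0.50 on soyasaponin and -0.45 on prebiotic. All 3 diets are set against the same 6 control fish, so these values share the controls' deviations. The transcripts were also chosen on combined against control fish, which by itself favours the largest difference on the combined diet. These medians therefore do not show a larger effect of the combined diet than of soyasaponin alone. By fish, the median difference of the raised transcripts from the control mean was 0.54 to 0.93 in combined, 0.21 to 0.66 in soyasaponin, 0.06 to 0.23 in prebiotic and -0.14 to 0.25 in control fish. That of the lowered transcripts was -0.997 to -0.61 in combined, -0.69 to -0.25 in soyasaponin, -0.72 to -0.22 in prebiotic and -0.11 to 0.14 in control fish.

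**Figure D4:**
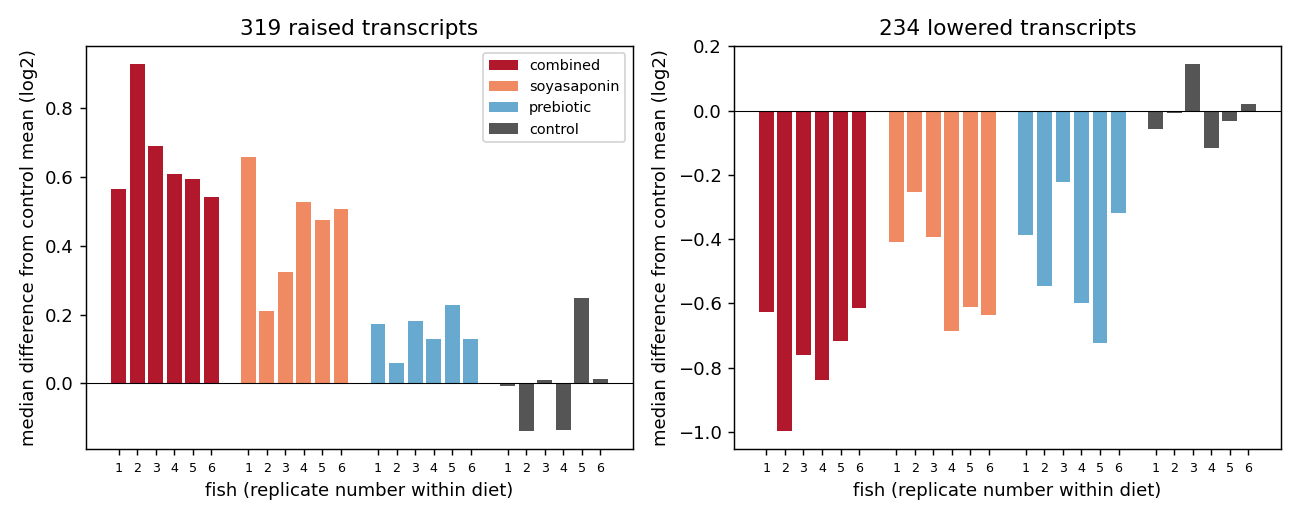
Each bar is 1 fish: the median, over the 319 raised (left) or 234 lowered (right) transcripts, of its log2 difference from the mean of the control fish. Raised transcripts stand at 0.21 or more in every soyasaponin fish and at 0.23 or less in every prebiotic fish, while lowered ones are below the control mean in all fish of both single additions. Both sets were chosen with these control fish, which by itself favours the called side in the other fish.

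The remaining 12 fish allow a comparison of soyasaponin with prebiotic fish. Their values enter neither side of the combined and control means, although they did enter the estimate of spread by which transcripts were called. Higher and lower means of soyasaponin and prebiotic fish are here means of log2(normalized count + 1). Of the 319 transcripts raised on the combined diet, 284 (89.0%) had a higher mean in soyasaponin than in prebiotic fish, against 46.8% of all transcripts tested. Their median log2 difference between soyasaponin and prebiotic fish was 0.34, against -0.03 over all transcripts. Of the 234 lowered transcripts, 130 (55.6%) had a lower mean in soyasaponin than in prebiotic fish, close to the 53.2% of all transcripts, and their median difference was -0.04. The shares over all transcripts are not matched to either set for mean count or spread between fish, so they are no matched reference. Most transcripts raised on the combined diet had a higher mean in soyasaponin than in prebiotic fish. For those lowered on it, the share was close to that of all transcripts with all 12 fish. It was not close without prebiotic replicates 4 and 5 (70.5% against 49.95%). Few were called one by one: 5 of the 319 and 1 of the 234 had an adjusted p under 0.05 in limma, against 0.223% of all transcripts.

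When the sets were instead called in a fit of only the combined and control fish (327 raised, 344 lowered), 255 of the 327 raised (78.0%) were higher and 201 of the 344 lowered (58.4%) were lower in soyasaponin than in prebiotic fish.

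The counts for the 319 and 234 transcripts moved little with the fish used for the raised set and more for the lowered set. Leaving out each of the 12 fish in turn gave 276 to 290 of the 319 and 117 to 152 of the 234. Prebiotic replicates 4 and 5 were the libraries least like the others, with median correlations of 0.853 and 0.839. Without both, the counts were 294 of 319 and 165 of 234, the second being 70.5% against 49.95% of all transcripts. Under quantile normalization they were 298 of 319 (93.4%, against 54.8% of all transcripts) and 112 of 234 (47.9%, against 45.2%).

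**Figure D5:**
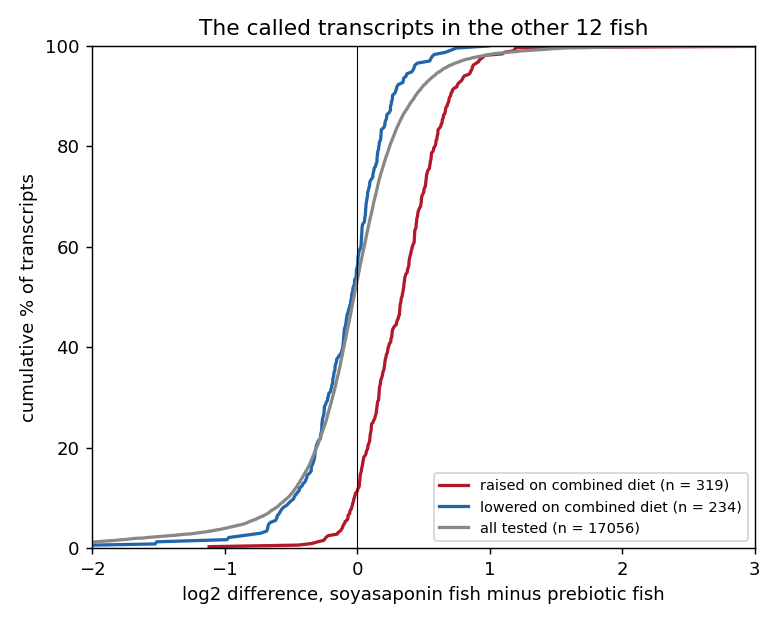
Cumulative share of transcripts (y axis, %) up to a given log2 difference of soyasaponin minus prebiotic fish (x axis, shown from -2 to 3), for the 319 raised, the 234 lowered and all 17056 transcripts. The raised curve is shifted to the right with a median of 0.34, while the lowered curve crosses 0 close to that of all transcripts.

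With all 24 fish, limma and edgeR called no transcript as different from the sum of the single additions, while DESeq2 did. The interaction, that is the effect of prebiotic in the presence of soyasaponin minus its effect in the absence of soyasaponin, was called in 0 transcripts by limma, 0 by edgeR and 94 by DESeq2. Its smallest adjusted p in limma was 0.128, and 2174 transcripts were under 0.05 before adjustment. Without prebiotic replicate 2, limma called 1 transcript (adjusted p = 0.0129). The median interaction was 0.05 over the 319 raised and 0.16 over the 234 lowered transcripts, against -0.04 over all transcripts. For the 4 transcripts given by identifier it was 0.80, -0.02, 0.43 and 1.21, with adjusted p of 0.379 to 0.996 (limma). The 95% interval for LABE_00029363-RA, not adjusted for the number of tests, was 0.03 to 2.39 and excluded 0, while those of the others included 0. The interaction was estimated less precisely than a difference between diets: the median half-width of its 95% interval was 0.60 on the log2 scale, against 0.42 for combined against control.

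Against soyasaponin alone, the combined diet gave 0 calls in limma, 0 in edgeR and 7 in DESeq2. In limma the smallest adjusted p was 0.276, and 933 transcripts were under 0.05 before adjustment. In 13332 of the 17056 transcripts (78.2%) the 95% interval of this difference lay within 2-fold in both directions, so for the other transcripts a difference of that size was not excluded. The medians of the raised and lowered transcripts against soyasaponin alone were 0.21 and -0.25, in the direction that their choice on the same combined fish favours. Against prebiotic alone, 649 transcripts (3.81%) were changed in combined fish, with 465 higher (2.73%) and 184 lower (1.08%). That count was 266 and 348 without combined replicates 2 and 3, and 420, 386 and 424 without prebiotic replicates 2, 4 and 5.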

How the data were processed

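Hindgut libraries of 24 fish were grouped by the treatment in the labels, with replicates numbered in accession order. The values are a signal, deposited by the authors: reads per transcript divided by a size factor per library. The submitters' processing notes name TopHat2, cutadapt, Subread, featureCounts and DESeq2. Their versions and roles, the build and the annotation are not given in the sources here. The smallest value above 0 of a column was taken as 1 read: 100% of 498024 values were whole multiples of it (tolerance 1e-06), and this gave reads per library. Within the combined and control diets, reads in 30 pairs of libraries differed by a chi-square per degree of freedom of 19.7 to 87.7. These libraries were therefore counted as separate fish, although the check cannot tell separate extracts of the same fish from separate fish. Soyasaponin and prebiotic libraries were not checked in this way and were taken as separate fish.

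limma 3.58.1 (R 4.3.3) with an intensity trend was fitted to log2(normalized count + 1) of the 17056 transcripts with a mean of at least 10, all 4 diets together, because normalized values are not counts. Tests were two-sided. Library measures and distances were tested with exact permutations over all arrangements of 6 against 6 fish. Alternatives included edgeR 4.0.16 and DESeq2 1.42.0 on recovered reads, other pseudocounts, filters and scalings, covariates, quality weights and omitted fish. Leaving out prebiotic replicates 4 and 5 together, and the comparison of soyasaponin with prebiotic fish (also over sets called from combined and control fish alone), were added after seeing the data. For transcripts without names, at most 2 identifiers per direction were given: the largest changes among called transcripts with a mean of at least 50 and no overlap. Members, rule and tests were chosen with earlier results of these data known. Fits were tested on simulated data. Plots were drawn with matplotlib 3.10.9. Intervals are 95%.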

Additional observations from a re-analysis of the deposited data

Results flagged for a closer look

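In 48 sets of 6 values, the highest or lowest fish was compared with the others by its gap over the range. By this rule 4 values from 3 fish stood apart. Chance gives about 1 in 20 only for independent, normally distributed values. Here the counts were not log-transformed, the sets share fish, and the raised and lowered transcripts were chosen with the same fish. That rate is therefore no matched reference, and the 4 values are a description. Soyasaponin replicate 1 had 614 normalized counts of LABE_00058622-RA, against 91.3 to 242 in the other soyasaponin fish. The same fish had 5797 of LABE_00035077-RA, against 153 to 1038. In combined replicate 2 the lowered transcripts took 0.524% of normalized counts, against 0.653 to 0.725% in the other combined fish. In control replicate 5 the raised transcripts took 3.901%, against 2.70 to 2.97% in the other control fish.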

How the results depend on the processing

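For combined against control, 553 transcripts became 332 under quantile normalization, 1247 in DESeq2, 1708 with array quality weights (930 raised, 778 lowered), 218 with the log2 size factor as covariate and 0 with a 1.2-fold minimum. Pseudocounts, filters, edgeR, the first principal component as covariate, a fit of only these diets (327 raised, 344 lowered) and omitting prebiotic replicates 4 and 5 (795) stayed within 1.5 times, at 444 to 795. The fit of only these diets called 671, of which 390 were among the 553, so a similar count did not mean the same transcripts. Omissions of 1 fish gave 19 to 820.

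Combined against prebiotic (649) became 1239 in DESeq2, 338 with the size factor covariate, 0 with the 1.2-fold minimum and 298 (160 higher, 138 lower) without prebiotic replicates 4 and 5. Omissions gave 266 to 781. Quantile normalization gave 641 higher and 98 lower. Combined against soyasaponin (0) became 7 in DESeq2 and 0 to 1 over omissions. The interaction (0) became 94 in DESeq2 and 0 to 1 over omissions. The distance share of diet, 12.8%, was 14.4% with a pseudocount of 5 (exact permutation p = 0.0390) and 12.4 to 14.6% over omissions. The causes were not tested.

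Log2 fold changes over omissions ran from 2.71 to 3.34 for LABE_00064073-RA, 2.50 to 3.07 for LABE_00058622-RA, -3.37 to -2.89 for LABE_00035077-RA and -2.26 to -1.79 for LABE_00029363-RA, with no change of sign. The 95% intervals of log2 fold changes were widest in the bottom tercile of mean normalized counts (median half-width 0.66), and the part of depth in this was not tested. In combined against control, 13 transcripts had no adjusted p in DESeq2. No paired analysis was possible because the labels give no replicate numbers shared between diets.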
